A study of Mus musculus with 16 samples.

Results

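The response of the colonic epithelium to dextran sulfate sodium (DSS) was read in control mice, by setting 4 libraries from animals given 3% DSS in their drinking water against 4 libraries from animals on normal water. The genes described are those on chromosomes 1 to 19 that reached at least 1 FPKM in at least 4 of the 16 libraries of the study, 12779 of the 56268 genes in the table, and 10397 of them are protein-coding by the table's own annotation. FPKM is the number of sequenced fragments per kilobase of gene, scaled to the size of the library. Control mice carried Villin-Cre, a transgene in which the villin promoter drives Cre recombinase in intestinal epithelium. The conditional knockout (cKO) mice carried Villin-Cre together with a floxed Rictor gene, so that both genotypes, on water and after DSS, share the transgene. The 8 cKO libraries are used here for comparison only. The study asked how mTOR complex 2, of which Rictor is the defining subunit, bears on colitis. The labels give the cells as colonic epithelial cells and name no age, sex, length of DSS treatment or pooling of animals. Whether each library is a different animal is not stated, and the p-values therefore measure only the spread between these libraries, which may be technical.

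DSS is a sulfated polysaccharide that damages the lining of the colon when it is drunk and lets gut bacteria reach the tissue below. Interferons are signals released by infected or alarmed cells. They bind receptors that activate JAK kinases, which phosphorylate STAT proteins. STAT and IRF proteins then bind short DNA elements in promoters and raise the transcription of antiviral effectors, guanylate-binding proteins and the antigen presentation machinery. The crypts of the colon hold Wnt-dependent stem cells that renew the epithelium, and absorptive, mucus-secreting goblet and hormone-secreting enteroendocrine cells descend from them.

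The reads recovered from the FPKM values came to 13934619 to 16201539 for each of the 8 libraries, with 20447 to 22738 genes above 0. Epithelial genes were abundant in all of them, with Epcam at 695 to 762 FPKM on water and 763 to 831 FPKM after DSS and the keratin Krt8 at 2716 to 3426 and 2607 to 3177 FPKM. 9 of 10 neutrophil markers had fewer than 30 reads over the 8 libraries. The 8 markers of endothelium, muscle and glia summed to 0.528 to 0.901 FPKM on water and 0.271 to 0.535 FPKM after DSS, and none was kept.

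Sex-linked reads separated the groups as well. Clock genes differed between the groups too, though not all without overlap, and these values touch every result that follows. Xist, the RNA that silences an X chromosome in females, had 12362, 10162, 17416 and 10022 reads in water 1 to 4, and 1, 5275, 2 and 7 reads in DSS 1 to 4. Reads of Y-linked genes numbered 792, 1377, 0 and 648 on water and 3435, 2681, 2917 and 3533 after DSS. Water 1, 2 and 4 and DSS 2 therefore held reads of both kinds. The sexes of the cells and the DSS treatment cannot be told apart in this design. Counts from a fit with the Y-linked level as covariate are given with the gene lists. Dbp, a clock output transcription factor, measured 14.6, 13.8, 28.4 and 1.52 FPKM on water and 0.265, 2.26, 0.786 and 0.230 FPKM after DSS. Water 4 stood nearer to the DSS libraries than to the other 3 water libraries. Its value lay within the range of the DSS group for 8 of 16 clock genes, while water 1, 2 and 3 lay within it for 0 of 16.

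**Figure D1:**
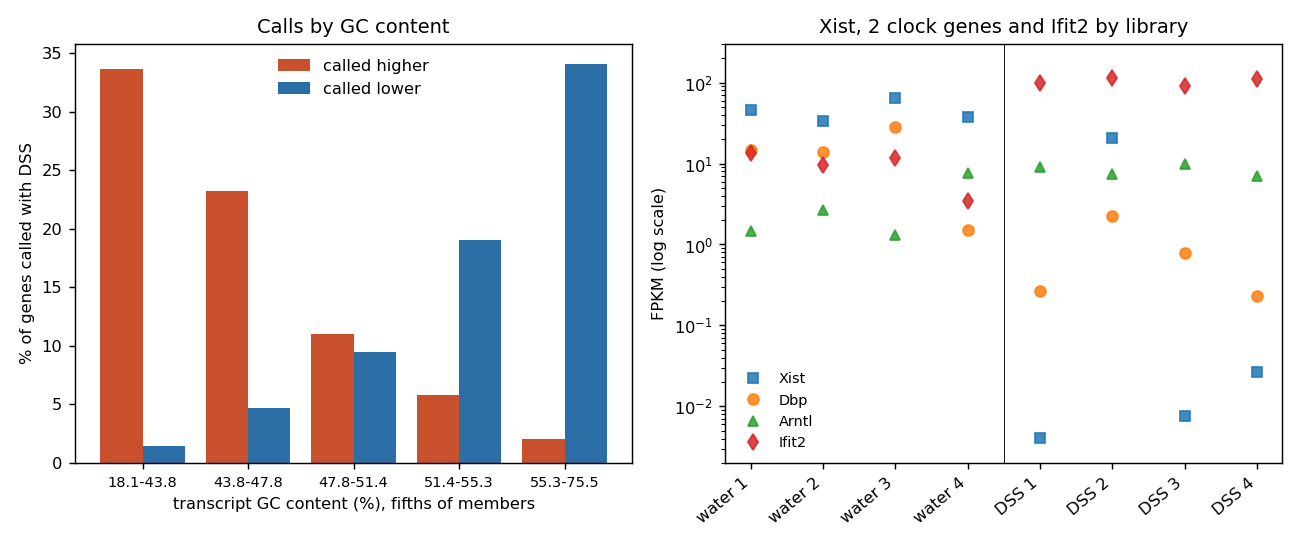
Left, percent of genes called higher or lower with DSS in control, in 5 equal groups by transcript GC content; the share called higher went from 33.7% to 2.09% and the share called lower from 1.45% to 34.1%. Right, FPKM (log axis) of Xist, the clock genes Dbp and Arntl and the antiviral gene Ifit2 in each of the 8 control libraries; water 4 has Dbp and Arntl nearest to the DSS libraries among the water libraries.

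3647 of the 12779 genes (28.5%) differed between DSS and water at an adjusted p under 0.05. 1904 (14.9%) were higher and 1743 (13.6%) lower, with 5276 genes at an unadjusted p under 0.05. Fold changes are given as differences of log2(FPKM + 1), which understates the change of genes near 1 FPKM. Most differences were small, since 131 genes rose and 166 fell by more than 1 on this scale. Those over 2 numbered 17 that rose and 9 that fell, and the median over all 12779 genes was -0.01. The 4 DSS values all lay above the 4 water values for 1975 genes (15.5%) and all below for 1658 (13%).

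Direction went with base composition. The median transcript GC content was 44.5% for genes called higher and 55.2% for genes called lower, against 49.7% for all. In the fifth of genes with the lowest GC content 33.7% were called higher and 1.45% lower, and in the fifth with the highest GC content 2.09% were higher and 34.1% lower. The fold change and GC content had a Spearman rho of -0.53 across genes, a description only, since genes of a library are not independent. After each library was corrected for a GC trend, 1367 of 12455 genes with a known GC content (11%) were higher and 1084 (8.7%) lower. Of the genes called without the correction, 1047 were again called higher and 832 again lower, and 0 were called in the opposite direction. 120 of the 131 rises over 1 and 143 of the 166 falls over 1 were among them. With the Y-linked covariate 188 genes were called, 134 higher and 54 lower, and without water 4 and DSS 2 there were 1406, of which 777 were higher and 629 lower.

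**Figure D2:**
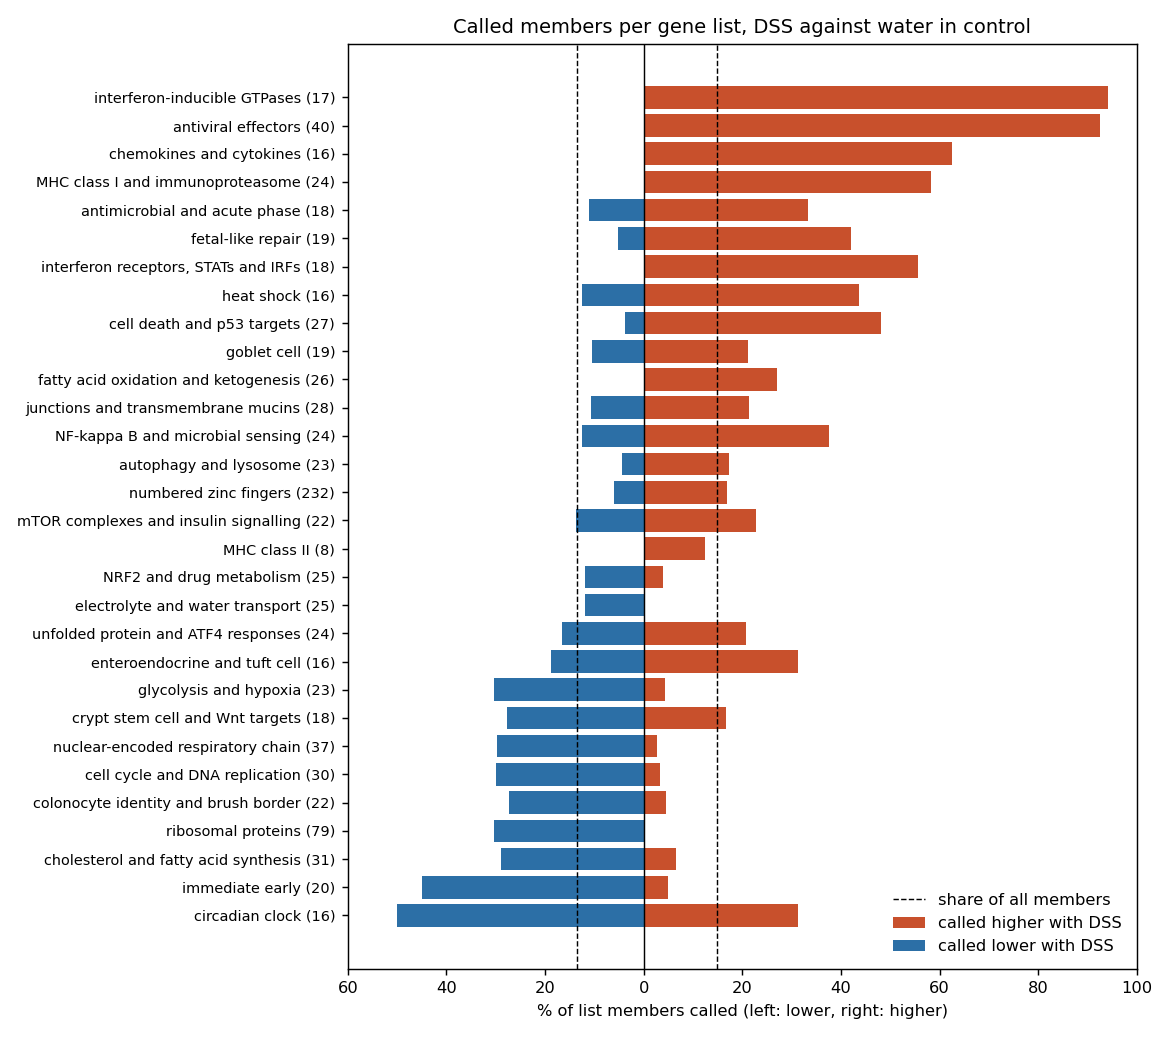
Percent of the kept members of each gene list called higher (right) or lower (left) with DSS in control; the number of members is in brackets, lists are ordered by their median log2 fold change, and dashed lines mark the 14.9% and 13.6% called among all members. The interferon-inducible GTPases and antiviral effectors reach 94.1% and 92.5% higher.

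Of the 37 gene lists, the interferon-inducible GTPases had the highest median and the largest share called higher. 16 of 17 kept interferon-inducible GTPases and 37 of 40 antiviral effectors were higher and 0 were lower, against 14.9% of all genes called higher. Their median log2 fold changes were +1.94 and +1.16. The summed FPKM of the GTPases was 53.3 to 99.0 on water and 335 to 407 after DSS, and that of the antiviral effectors 722 to 1478 and 2479 to 2662. Neither pair of ranges overlapped. 4 of the GTPases were under 1 FPKM in all 8 water libraries of both genotypes and were kept through DSS libraries alone, so that the filter favoured a rise. Of the other 13 GTPases 12 were higher. No antiviral effector was kept in that way.

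The GTPases guard the cell interior by coating and breaking the vacuoles of intracellular microbes. Gbp2, a guanylate-binding protein, measured 12.3, 12.9, 7.55 and 6.47 FPKM on water and 37.04, 38.7, 36.8 and 43.9 FPKM after DSS (log2 change +1.94 ± 0.21 SE, adjusted p = 5.12e-05). Its relative Gbp3 measured 8.44, 6.67, 4.67 and 3.22 FPKM on water and 29.98, 24.7, 24.6 and 28.2 FPKM after DSS (log2 change +2.10 ± 0.23 SE, adjusted p = 5.67e-05). In both genes every DSS library lay above every water library, and water 4 was the lowest of all 8. Tgtp1, of the immunity-related family, measured 0.125, 0.512, 0.334 and 0.313 FPKM on water and 10.8, 7.62, 5.72 and 8.80 FPKM after DSS (log2 change +2.78 ± 0.22 SE). Among control libraries only those after DSS reached 1 FPKM for Tgtp1, so no p-value is given for it. Igtp (Irgm3), a regulator of that family, measured 18.7, 14.7, 12.3 and 10.1 FPKM on water and 71.7, 65.1, 76.03 and 78.3 FPKM after DSS (log2 change +2.33 ± 0.14 SE, adjusted p = 4.46e-07). Again no water library reached any DSS library. The smallest member difference was that of Gvin1, the very large GTPase, which did not pass the test (+0.20, adjusted p = 0.664). Gbp2 to Gbp9, the Tgtp pair and the Irgm genes are close relatives, so reads that fit several of them make single values uncertain. Tgtp2, the near-identical neighbour of Tgtp1, had 2 reads on water and 4 after DSS.

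Promoters were searched because these genes moved together. Of the 12779 genes, 8677 matched a promoter of RefSeq (build GRCm38.p6, equal to mm10), taken as 250 bases before to 50 after a gene's start. A gene counts as holding a match if at least 1 of its promoters does. The core of the interferon response element was searched as GAAANNGAA on both strands (TTCNNTTTC on the other). It was found in 9 of 9 GTPase genes, 61.3% of 31 antiviral genes and 25.0% of 20 genes of MHC class I and its peptide machinery. It was found in 8.5% of all 8677. The gamma activated site bound by STAT dimers, TTCNNNGAA, reads the same on both strands. It was found in 66.7% of the 9 GTPase genes, 25.8% of the antiviral genes and 8.03% of all. Among the 47 genes with a promoter that rose by more than 1 on the log2 scale and belong to no interferon-related list, 21.3% held GAAANNGAA. The share was 14.3% of 14 genes of interferon receptors, STATs and IRFs, and 21.8% of 55 ribosomal protein genes, none of which was called higher. A match shows only that the letters are there.

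Promoters of 5 genes that hold the core, from among the largest rises of the interferon, MHC class I and chemokine lists, are given (Gbp3 was taken before Slfn5, which rose equally to the digits kept) 5′ to 3′ in the direction of transcription, as the 250 bases before the RefSeq start of build GRCm38.p6, with the core in capitals. The core begins 77 bases before the start of Tgtp1, 213 before that of Cxcl10, 34 before Igtp, 119 before Rsad2, and 44 and 38 before Gbp3, where 2 matches overlap. Tgtp1 lies at chr11:48992247-48992496 on the minus strand, Cxcl10 at chr5:92348890-92349139 on the minus strand, Igtp at chr11:58199306-58199555 on the plus strand, Rsad2 at chr12:26456453-26456702 on the minus strand and Gbp3 at chr3:142559794-142560043 on the plus strand.
Tgtp1: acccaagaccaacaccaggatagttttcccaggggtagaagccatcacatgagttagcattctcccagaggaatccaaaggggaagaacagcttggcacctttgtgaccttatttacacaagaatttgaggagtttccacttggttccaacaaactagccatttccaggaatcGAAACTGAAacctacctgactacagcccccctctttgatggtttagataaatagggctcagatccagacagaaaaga
Cxcl10: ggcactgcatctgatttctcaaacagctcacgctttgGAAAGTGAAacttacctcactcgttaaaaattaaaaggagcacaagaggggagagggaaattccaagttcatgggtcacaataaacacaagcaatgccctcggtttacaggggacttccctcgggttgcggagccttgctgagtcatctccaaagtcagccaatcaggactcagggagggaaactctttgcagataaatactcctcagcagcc
Igtp: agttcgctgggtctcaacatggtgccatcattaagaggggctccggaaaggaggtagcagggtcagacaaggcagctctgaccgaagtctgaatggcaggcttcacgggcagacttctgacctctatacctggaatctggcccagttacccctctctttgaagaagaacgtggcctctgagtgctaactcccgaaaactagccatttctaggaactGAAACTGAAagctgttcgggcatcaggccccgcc
Rsad2: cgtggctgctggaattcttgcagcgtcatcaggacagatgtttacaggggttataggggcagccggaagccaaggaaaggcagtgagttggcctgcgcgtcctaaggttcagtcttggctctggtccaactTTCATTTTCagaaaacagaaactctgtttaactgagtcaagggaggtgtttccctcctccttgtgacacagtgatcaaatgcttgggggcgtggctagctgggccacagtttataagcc
Gbp3: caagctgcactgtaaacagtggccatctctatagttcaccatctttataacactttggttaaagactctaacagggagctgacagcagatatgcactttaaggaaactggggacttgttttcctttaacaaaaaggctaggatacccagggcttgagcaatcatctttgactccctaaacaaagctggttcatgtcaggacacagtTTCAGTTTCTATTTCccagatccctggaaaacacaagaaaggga

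Antiviral effectors sense or destroy viral RNA and block viral entry. Ifit1, which binds RNA that lacks the host's cap methylation, measured 60.7, 40.2, 34.8 and 17.3 FPKM on water and 124, 134, 112 and 155 FPKM after DSS (log2 change +1.87 ± 0.30 SE, adjusted p = 0.00109). All 4 DSS libraries lay above all 4 water libraries, and water 4 was lowest. Oasl2, of the oligoadenylate synthetase family, measured 64.0, 52.4, 39.6 and 25.2 FPKM on water and 98.4, 92.0, 97.1 and 83.6 FPKM after DSS (log2 change +1.09 ± 0.24 SE, adjusted p = 0.00568), without overlap. Usp18, a protease that removes ISG15 from proteins and damps receptor signalling, measured 12.4, 12.7, 8.68 and 4.18 FPKM on water and 38.7, 37.4, 34.8 and 54.3 FPKM after DSS (log2 change +2.09 ± 0.27 SE, adjusted p = 0.000257). DSS 4 was highest and the other 3 DSS libraries were within 4 FPKM of each other. The RNA sensors Ddx58 (RIG-I) and Ifih1 (MDA5) rose as well, by +1.18 ± 0.21 SE and +1.02 ± 0.20 SE, and so did the membrane protein Ifitm3, by +1.84 ± 0.21 SE. Their names were chosen after their values were seen, as were those of other list members outside the rule for named genes. Isg15 itself overlapped between groups, with 132, 95.2, 81.3 and 52.96 FPKM on water and 129, 124, 209 and 201 FPKM after DSS (log2 change +0.90 ± 0.33 SE, adjusted p = 0.0528). Ifi35 and Slfn2 also missed the threshold (adjusted p = 0.163 and 0.454).

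The antiviral level on water differed between libraries. Water 4 held the lowest of the 4 water values for 37 of 40 antiviral effectors and 12 of 17 GTPases, and water 1 the lowest for 1 and 2. For these genes water 4 lay on the far side of the other water libraries from DSS, whereas for the clock genes it lay near DSS. With water 4 and DSS 2 left out, 34 antiviral effectors and 15 GTPases were called higher. With the Y-linked covariate 18 and 14 were, and after the GC correction 39 and 15.

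**Figure D3:**
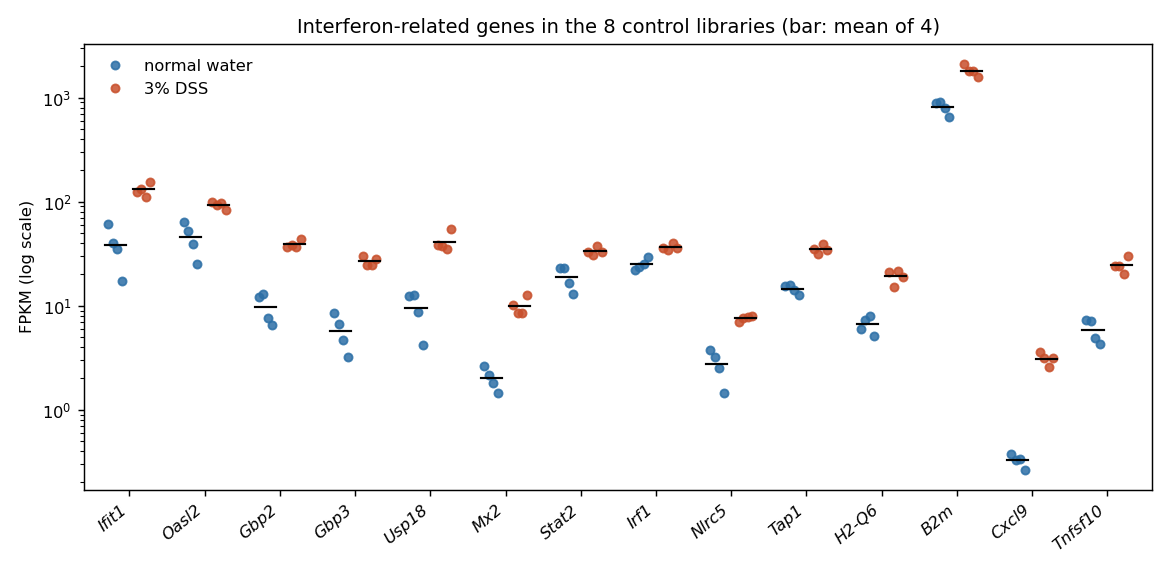
FPKM (log axis) of 14 interferon-related genes in the 4 water libraries (blue, in order 1 to 4) and the 4 DSS libraries (orange); each point is a library and each bar the mean of 4. In all 14 the DSS points lie above the water points. Cxcl9 among them was kept through DSS libraries alone.

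Of the signalling genes of the pathway, 10 of 18 were higher and 0 lower, with a median of +0.29. The transcription factor Stat2 measured 23.04, 23.2, 16.6 and 12.98 FPKM on water and 32.7, 30.8, 37.5 and 32.97 FPKM after DSS (log2 change +0.82 ± 0.15 SE, adjusted p = 0.00229). The groups did not overlap. Irf1, an interferon-induced transcription factor, measured 22.2, 23.7, 25.2 and 29.2 FPKM on water and 35.7, 34.7, 40.1 and 36.3 FPKM after DSS (log2 change +0.54 ± 0.10 SE, adjusted p = 0.0029), and here water 4 was the highest water library. Nlrc5, the transactivator of MHC class I genes, measured 3.75, 3.23, 2.54 and 1.45 FPKM on water and 6.96, 7.57, 7.86 and 8.04 FPKM after DSS (log2 change +1.24 ± 0.16 SE, adjusted p = 0.000275). Receptor and kinase genes moved less, with Ifnar1 at +0.28 and Jak1 at +0.30, both called, and Ifngr1 at +0.20 and Ifngr2 at +0.14, not called. Socs1, a feedback inhibitor of JAK kinases, rose by +0.76 ± 0.15 SE. Irf7 measured 83.4, 75.2, 74.05 and 69.4 FPKM on water and 89.5, 77.9, 132 and 78.05 FPKM after DSS, with overlap, and was not called (adjusted p = 0.299). The interferon gamma gene Ifng had 1 read on water and 0 after DSS. 2 of the 18 were called higher with the Y-linked covariate.

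Genes of MHC class I, which presents peptides of the cell's own proteins at its surface, rose in 14 of 24 cases and fell in 0, with a median of +0.55. H2-T10, kept through DSS libraries alone, was not among the 14. B2m, the invariant light chain, measured 896, 901, 791 and 648 FPKM on water and 2097, 1810.0, 1810.0 and 1586 FPKM after DSS (log2 change +1.18 ± 0.20 SE, adjusted p = 0.00146). Tap1, a subunit of the peptide transporter, measured 15.6, 15.9, 14.04 and 12.6 FPKM on water and 35.04, 31.5, 39.4 and 34.6 FPKM after DSS (log2 change +1.22 ± 0.11 SE, adjusted p = 1.76e-05). Every DSS library exceeded every water library in both. The heavy chain H2-Q6 measured 5.999, 7.36, 8.05 and 5.07 FPKM on water and 21.2, 15.3, 21.6 and 18.8 FPKM after DSS (log2 change +1.41 ± 0.19 SE, adjusted p = 0.000379), and the peptide editor Tapbp rose by +0.65 ± 0.08 SE. The immunoproteasome subunits Psmb8 and Psmb9 rose by +1.08 ± 0.25 SE and +0.81 ± 0.15 SE, while Psmb10 did not pass (+0.36, adjusted p = 0.0892). The classical heavy chain H2-D1 had +0.14 (adjusted p = 0.794) and H2-K1 +0.67 (adjusted p = 0.0822). Heavy chain genes are near-identical copies, so their separate values are uncertain. Without water 4 and DSS 2 there were 9 higher, and with the Y-linked covariate 4.

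MHC class II genes, which present material taken up from outside, were mostly not called. 1 of 8 was higher, the lysosomal protease Ctss (151, 131, 131 and 121 FPKM on water and 178, 182, 200.1 and 181 FPKM after DSS; log2 change +0.47 ± 0.09 SE, adjusted p = 0.00234), and 0 were lower. Cd74, the invariant chain, measured 44.4, 68.9, 42.9 and 112 FPKM on water and 78.4, 55.1, 93.9 and 57.1 FPKM after DSS and overlapped, with water 4 the highest of the 8 libraries (adjusted p = 0.678). H2-Aa, a class II chain, measured 0.722, 1.80, 1.59 and 11.2 FPKM on water and 2.31, 2.73, 3.97 and 1.83 FPKM after DSS, again with water 4 highest. The class II transactivator Ciita was below the level for inclusion, with 417 reads on water and 559 after DSS. The median of the 8 genes was +0.01, close to that of all genes. Without water 4 and DSS 2, Cd74 had +0.55 (adjusted p = 0.122) and H2-Aa +0.63 (adjusted p = 0.0791). In that fit 1 of the 8 was called higher, and with the Y-linked covariate 0 were. In cKO the median was +0.53 and 2 of the 8 were higher.

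10 of 16 chemokine and cytokine genes were higher and 0 lower (median +0.56), but Cxcl9 and Il1b were kept through DSS libraries alone, and 8 of the other 14 were higher. No p-value is given for Cxcl9 or Il1b. Cxcl9, which attracts T cells through CXCR3, measured 0.377, 0.330, 0.333 and 0.266 FPKM on water and 3.63, 3.12, 2.57 and 3.13 FPKM after DSS (log2 change +1.63 ± 0.18 SE). Its relative Cxcl10 measured 1.34, 1.35, 1.46 and 1.19 FPKM on water and 13.03, 12.1, 7.74 and 22.8 FPKM after DSS (log2 change +2.58 ± 0.28 SE, adjusted p = 6.66e-05). Tnfsf10, the death ligand TRAIL, measured 7.23, 7.06, 4.90 and 4.29 FPKM on water and 24.4, 24.04, 20.1 and 29.8 FPKM after DSS (log2 change +1.91 ± 0.17 SE, adjusted p = 1.17e-05). Neither Cxcl10 nor Tnfsf10 overlapped between groups. Il18bp, the secreted inhibitor of interleukin 18, rose by +1.26 ± 0.22 SE, and Il18 by +0.57 ± 0.19 SE, with overlap and with no call after the GC correction. Cxcl1, Cxcl2, Lcn2, Il6 and S100a8 were below the level for inclusion. Cxcl1 had 35 reads on water and 40 after DSS, Cxcl2 6 and 23, Lcn2 10 and 26, Il6 0 and 4, and S100a8 3 and 3. Il1b measured 0.491, 0.369, 0.140 and 0.211 FPKM on water and 0.794, 0.912, 0.617 and 1.95 FPKM after DSS (log2 change +0.63 ± 0.22 SE). Tnf measured 1.18, 1.11, 1.02 and 1.19 FPKM on water and 2.11, 1.06, 2.15 and 2.27 FPKM after DSS, with overlap and not called (adjusted p = 0.118). 3 of the 16 were higher with the Y-linked covariate, and without water 4 and DSS 2 there were 6.

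Among genes of NF-kappa B and microbial sensing, 9 of 24 (37.5%) were higher and 3 (12.5%) lower, against 14.9% and 13.6% of all genes. Myd88, the adaptor of Toll-like receptors, measured 11.8, 13.3, 11.4 and 14.4 FPKM on water and 20.2, 20.97, 19.1 and 20.49 FPKM after DSS (log2 change +0.63 ± 0.09 SE, adjusted p = 0.000689). The receptors Tlr4 and Tlr2 rose by +0.91 ± 0.17 SE and +0.78 ± 0.18 SE, each without overlap. The deubiquitinase Cyld, a brake on the pathway, measured 4.28, 4.29, 4.21 and 3.71 FPKM on water and 6.20, 5.66, 5.16 and 6.22 FPKM after DSS (log2 change +0.41 ± 0.07 SE, adjusted p = 0.00216). Tnfaip3, another brake, measured 8.68, 9.52, 7.82 and 8.94 FPKM on water and 11.3, 10.9, 10.5 and 15.3 FPKM after DSS (log2 change +0.41 ± 0.12 SE, adjusted p = 0.0206). Nfkbia, the inhibitor that the pathway itself induces, overlapped at 41.9, 33.5, 30.6 and 40.3 FPKM on water and 40.7, 37.3, 41.98 and 38.9 FPKM after DSS (adjusted p = 0.392). The subunit genes Nfkb1, Nfkb2 and Rela had +0.01, -0.02 and -0.13 and were not called. A kappa B site, GGGNNTTCC on either strand, was found in 47.4% of the 19 genes of this list with a promoter and 8.93% of all. 4 of the 24 were higher without water 4 and DSS 2, and 1 with the Y-linked covariate.

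Of 18 antimicrobial and acute phase genes 6 (33.3%) were higher and 2 (11.1%) lower, against 14.9% and 13.6% of all genes. Steap4, a metalloreductase induced in inflammation, measured 2.93, 2.17, 1.84 and 1.70 FPKM on water and 6.53, 5.54, 4.41 and 6.54 FPKM after DSS (log2 change +1.10 ± 0.17 SE, adjusted p = 0.000987) and did not overlap. The goblet cell peptide Retnlb measured 1075, 1517, 553 and 485 FPKM on water and 2029, 1639, 1849 and 1957 FPKM after DSS (log2 change +1.19 ± 0.32 SE, adjusted p = 0.0148). Saa1, an acute phase protein, fell from 105, 93.8, 111 and 149 FPKM to 54.5, 72.8, 73.4 and 56.97 FPKM (log2 change -0.82 ± 0.16 SE, adjusted p = 0.00396), without overlap. The bactericidal lectin Reg3b overlapped, with 215, 73.97, 243 and 484 FPKM on water and 350.3, 268, 306 and 309 FPKM after DSS (adjusted p = 0.594), and Reg3g likewise did not pass (+0.74, adjusted p = 0.385). Without water 4 and DSS 2, or with the Y-linked covariate, 1 member was higher.

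In the list of cell death and p53 targets 13 of 27 were higher and 1 was lower. Casp8, the initiator caspase of death receptors, measured 38.8, 34.2, 38.2 and 37.9 FPKM on water and 49.8, 49.9, 51.6 and 49.4 FPKM after DSS (log2 change +0.42 ± 0.09 SE, adjusted p = 0.00568). Nlrp6, an epithelial inflammasome sensor, measured 78.9, 68.6, 69.2 and 80.4 FPKM on water and 108, 112, 114 and 115 FPKM after DSS (log2 change +0.59 ± 0.08 SE, adjusted p = 0.000331). Neither overlapped between groups. Trp53inp1, a p53 target, rose by +0.88 ± 0.15 SE, and the necroptosis effector Mlkl by +0.65 ± 0.16 SE. Cdkn1a, the p53 target that halts the cell cycle, was the 1 member that fell, from 70.96, 59.5, 74.4 and 61.3 FPKM to 45.7, 46.8, 46.1 and 44.5 FPKM (log2 change -0.52 ± 0.09 SE, adjusted p = 0.00143). Gsdmd, the pore former of pyroptosis, overlapped at 62.6, 61.6, 63.1 and 71.2 FPKM on water and 57.9, 59.1, 61.9 and 80.8 FPKM after DSS (adjusted p = 0.987). After the GC correction 7 of the 27 were higher, and with the Y-linked covariate 1.

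Among crypt stem cell and Wnt genes 5 of 18 (27.8%) were lower, against 13.6% of all genes. Cd44, Lgr4 and Prom1 (16.7% of the 18) were higher, near the 14.9% of all genes. Axin2, a direct Wnt target, measured 6.23, 6.94, 9.15 and 7.03 FPKM on water and 2.37, 3.91, 3.61 and 2.46 FPKM after DSS (log2 change -1.04 ± 0.14 SE, adjusted p = 0.00028). Ascl2, the stem cell transcription factor, measured 9.27, 5.52, 5.89 and 5.28 FPKM on water and 2.04, 3.04, 2.73 and 1.36 FPKM after DSS (log2 change -1.19 ± 0.18 SE, adjusted p = 0.000906). In both genes every DSS library was below every water library. Rnf43, a ligase that removes Wnt receptors, fell by 0.57 on the log2 scale from 7.87, 9.28, 10.7 and 7.89 FPKM to 4.79, 6.20, 6.20 and 5.48 FPKM. The stem cell receptor Lgr5 overlapped only through water 4, at 1.30, 1.22, 1.15 and 0.528 FPKM on water and 0.548, 0.800, 0.600 and 0.489 FPKM after DSS, and did not pass (adjusted p = 0.101), but was called lower after the GC correction. With the Y-linked covariate 2 of the 18, Axin2 and Ascl2, were lower and 0 higher.

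Of 30 genes of the cell cycle and DNA replication 9 were lower and 1 higher. E2f1, a transcription factor that drives S-phase genes, fell from 3.16, 3.75, 4.43 and 3.16 FPKM to 1.19, 1.77, 1.32 and 1.38 FPKM (log2 change -0.94 ± 0.15 SE, adjusted p = 0.00115). The helicase subunit Mcm7 fell from 15.6, 14.3, 16.1 and 12.5 FPKM to 8.58, 10.3, 10.3 and 9.36 FPKM (log2 change -0.55 ± 0.10 SE, adjusted p = 0.00263). The groups were separate in both genes. The proliferation marker Mki67 overlapped at 23.1, 22.6, 21.2 and 25.2 FPKM on water and 19.8, 23.6, 23.6 and 14.6 FPKM after DSS (adjusted p = 0.374), and Top2a, a topoisomerase of dividing cells, had +0.27 (adjusted p = 0.0786). The cyclin Ccnb1, which acts in mitosis, rose by +0.49 ± 0.15 SE. Pcna, the replication clamp, had +0.18 and overlapped. 0 of the 30 were called in either direction with the Y-linked covariate.

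8 of 19 genes of fetal-like repair, a state of the epithelium seen while wounds close, were higher and 1 was lower. Ly6a (Sca-1), a surface marker of that state, measured 336, 372, 316 and 308 FPKM on water and 956, 826, 845 and 1073 FPKM after DSS (log2 change +1.47 ± 0.20 SE, adjusted p = 0.000338). The EGF receptor ligand Ereg measured 0.324, 0.482, 0.551 and 0.649 FPKM on water and 2.81, 2.36, 1.64 and 3.35 FPKM after DSS (log2 change +1.22 ± 0.18 SE). Areg, another such ligand, measured 25.9, 38.8, 32.2 and 31.6 FPKM on water and 59.2, 42.5, 48.8 and 78.8 FPKM after DSS (log2 change +0.79 ± 0.18 SE, adjusted p = 0.00651). The 3 genes were each highest in DSS 4. Ereg was kept through DSS libraries alone, so no p-value is given for it, and of the other 18 genes 7 were higher. Anxa1, a mediator that resolves inflammation, measured 53.01, 46.4, 44.2 and 44.05 FPKM on water and 68.4, 69.3, 56.6 and 93.1 FPKM after DSS (log2 change +0.59 ± 0.15 SE, adjusted p = 0.0132). It too was highest in DSS 4, and Ly6a, Areg and Anxa1 did not overlap between groups. Clu, a marker of revival stem cells, had +0.12 (adjusted p = 0.605), and Krt19 fell from 1913, 1843, 2088 and 2405 FPKM to 1275, 1293, 1696 and 1161 FPKM. Ly6a is also known as an interferon-induced gene. With the Y-linked covariate 4 were higher, and after the GC correction 7.

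**Figure D4:**
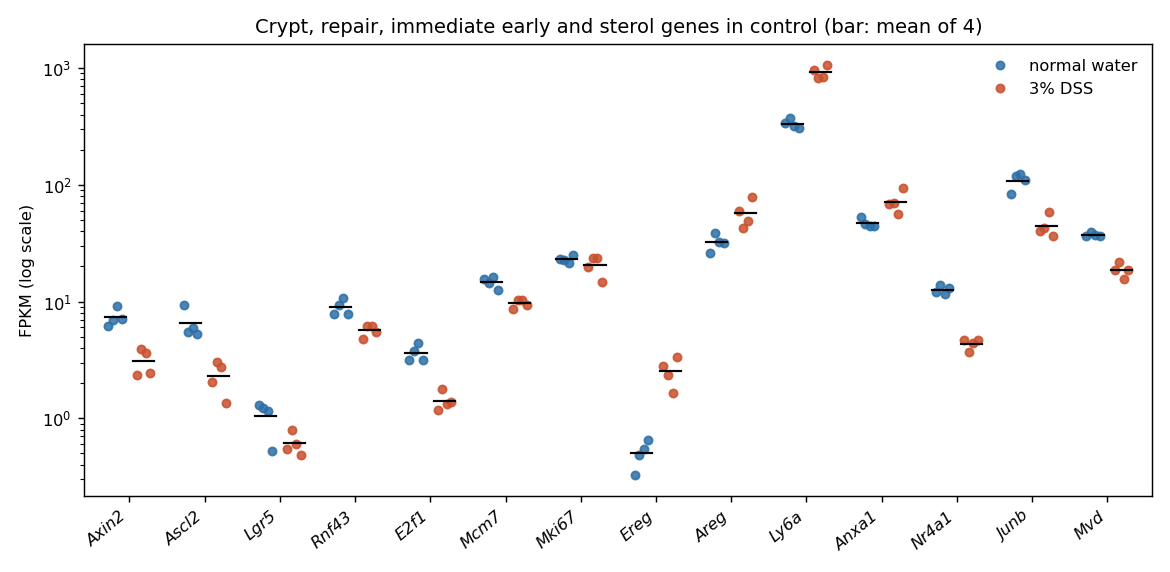
FPKM (log axis) of crypt, replication, repair, immediate early and sterol genes in the 4 water (blue, in order 1 to 4) and 4 DSS (orange) control libraries; bars are means. Axin2, Ascl2, Rnf43, E2f1 and Mcm7 lie lower after DSS and Ereg, Areg, Ly6a and Anxa1 higher, while Lgr5 and Mki67 overlap. Ereg was kept through DSS libraries alone.

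Of 22 genes of colonocyte identity and the brush border, 6 were lower and 1 higher. Myo1a, the motor of the microvillus, measured 186, 185, 219.6 and 167 FPKM on water and 103, 116, 128 and 102 FPKM after DSS (log2 change -0.75 ± 0.14 SE, adjusted p = 0.00237), without overlap. Espn, which bundles actin in microvilli, fell by 0.51 on the log2 scale, but by 0.08 after the GC correction, where it was not called. Krt20 overlapped at 491, 423, 591 and 501 FPKM on water and 421, 432, 428 and 500.2 FPKM after DSS (adjusted p = 0.346). Of 25 genes of electrolyte and water transport 3 (12%) were lower, against 13.6% of all genes, and 0 were higher. Car4, a carbonic anhydrase of the surface cells, measured 234, 214, 321 and 196 FPKM on water and 130.1, 154, 175 and 64.5 FPKM after DSS (log2 change -0.94 ± 0.25 SE, adjusted p = 0.0136), with DSS 4 the lowest of the 8 libraries. The chloride exchanger Slc26a3 overlapped, at 138, 136, 179.9 and 114 FPKM on water and 116, 146, 115 and 115 FPKM after DSS. The water channel Aqp8 did so too, at 209, 165, 248 and 298 FPKM on water and 184, 196, 243 and 198 FPKM after DSS. After the GC correction 2 genes of each list were lower, without water 4 and DSS 2 there were 3 of each, and with the Y-linked covariate 0 were called in either list.

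Goblet cell genes were 4 higher (21.1%) and 2 lower (10.5%) of 19, against 14.9% and 13.6% of all genes. Agr2, which folds mucins, measured 579.5, 718, 514 and 498 FPKM on water and 713, 738, 792 and 754 FPKM after DSS (log2 change +0.39 ± 0.11 SE, adjusted p = 0.0215), overlapping between water 2 and DSS 1, and was not called after the GC correction. Sytl2, of granule release, rose by +0.65 ± 0.17 SE. Muc2, the gel mucin, overlapped at 3.18, 5.75, 2.93 and 1.41 FPKM on water and 3.26, 3.49, 2.56 and 5.53 FPKM after DSS (adjusted p = 0.656). Clca1, a protein of the mucus, also overlapped, at 2052, 3096, 961 and 806 FPKM on water and 2548, 2372, 3065 and 1520.0 FPKM after DSS (adjusted p = 0.225). No goblet cell gene was higher without water 4 and DSS 2 or with the Y-linked covariate. Among junction genes 6 of 28 (21.4%) were higher and 3 (10.7%) lower, against 14.9% and 13.6% of all genes. The claudin Cldn12 measured 17.1, 16.9, 13.8 and 15.8 FPKM on water and 29.9, 24.6, 23.6 and 25.0 FPKM after DSS (log2 change +0.66 ± 0.10 SE, adjusted p = 0.000704). Marveld2, a tight junction protein where 3 cells meet, measured 14.4, 15.4, 13.4 and 14.7 FPKM on water and 21.2, 18.2, 19.8 and 21.1 FPKM after DSS (log2 change +0.45 ± 0.07 SE, adjusted p = 0.000991). Neither overlapped. Cldn3 did not pass in either direction (-0.25, adjusted p = 0.173). Tjp1 (ZO-1) had +0.21 and overlapped. Corrected for GC, 8 junction genes were higher and 0 lower, without water 4 and DSS 2 there were 5 and 1, and with the Y-linked covariate 0 were called.

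Of 16 enteroendocrine and tuft cell genes 5 (31.25%) were higher and 3 (18.75%) lower, against 14.9% and 13.6% of all genes. Nts, the hormone neurotensin, measured 3.54, 1.83, 3.06 and 3.005 FPKM on water and 9.36, 7.31, 6.99 and 7.50 FPKM after DSS (log2 change +1.2 ± 0.17 SE, adjusted p = 0.000532). Tph1, which makes serotonin, measured 1.60, 1.39, 2.33 and 1.31 FPKM on water and 3.81, 3.24, 2.63 and 2.65 FPKM after DSS (log2 change +0.62 ± 0.15 SE, adjusted p = 0.00911). Chga, a protein of the hormone granule, fell, at 10.2, 9.05, 14.4 and 9.06 FPKM on water and 5.78, 4.39, 7.93 and 3.97 FPKM after DSS (log2 change -0.86 ± 0.24 SE, adjusted p = 0.0185). The groups were separate in all 3, but Chga was not called after the GC correction. The tuft cell marker Dclk1 had -0.04 and overlapped. The GC correction left 3 of the 16 higher and 0 lower, leaving out water 4 and DSS 2 left 2 and 0, and the Y-linked covariate 1 and 0. In bulk tissue fewer cells of a type and less RNA per cell cannot be told apart.

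Immediate early genes, which answer to growth factors and to handling within minutes, were 9 lower and 1 higher of 20. Nr4a1 measured 12.03, 13.8, 11.6 and 13.1 FPKM on water and 4.68, 3.69, 4.397 and 4.65 FPKM after DSS (log2 change -1.35 ± 0.22 SE, adjusted p = 0.00109). Junb measured 83.2, 119.6, 123 and 109.6 FPKM on water and 39.9, 42.9, 58.97 and 36.2 FPKM after DSS (log2 change -1.28 ± 0.27 SE, adjusted p = 0.00521). Neither overlapped. Egr1 fell from 49.8, 64.5, 63.7 and 60.9 FPKM to 43.3, 35.2, 37.9 and 41.8 FPKM, and Fos overlapped at 167, 206, 183 and 197 FPKM on water and 135, 129, 137 and 176 FPKM after DSS (adjusted p = 0.0771). After the GC correction 5 were lower, without water 4 and DSS 2 there were 2, and with the Y-linked covariate 1. Heat shock genes rose in 7 of 16 cases (43.75%) and fell in 2 (12.5%), against 14.9% and 13.6% of all genes. The chaperone Hspa1b measured 28.2, 26.3, 18.2 and 25.5 FPKM on water and 71.2, 73.7, 64.3 and 76.02 FPKM after DSS (log2 change +1.51 ± 0.22 SE, adjusted p = 0.000625). Dnaja1 and Chordc1, of the same list, rose by +0.82 ± 0.13 SE and +0.96 ± 0.15 SE. Hsp90aa1 overlapped at 116, 118, 51.7 and 64.8 FPKM on water and 110.2, 102, 93.05 and 111 FPKM after DSS. Heat shock genes were 7 higher and 1 lower both after the GC correction and without water 4 and DSS 2, and 1 and 1 with the Y-linked covariate. Of 24 genes of the unfolded protein and ATF4 responses 5 (20.8%) were higher and 4 (16.7%) lower, against 14.9% and 13.6% of all genes. Edem1, which directs misfolded proteins to disposal, measured 29.4, 25.9, 25.1 and 22.2 FPKM on water and 41.3, 38.1, 35.7 and 41.5 FPKM after DSS (log2 change +0.60 ± 0.09 SE, adjusted p = 0.000636). The serine pathway enzyme Shmt2 measured 9.98, 8.80, 9.94 and 9.91 FPKM on water and 5.73, 5.55, 6.03 and 5.47 FPKM after DSS (log2 change -0.67 ± 0.13 SE, adjusted p = 0.00373). Hspa5 (BiP) did not pass (+0.40, adjusted p = 0.0683). With GC corrected 4 of the 24 were higher and 2 lower, without water 4 and DSS 2 there was 1 in each direction, and with the Y-linked covariate 0 were called.

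Genes of cholesterol and fatty acid synthesis were 9 lower and 2 higher of 31. Mvd, an enzyme of the mevalonate pathway, fell from 36.6, 39.4, 37.3 and 36.1 FPKM to 18.6, 21.8, 15.5 and 18.7 FPKM (log2 change -0.97 ± 0.17 SE, adjusted p = 0.00173), without overlap. Water 4 had the lowest water value for 26 of the 31 genes. After the GC correction 5 of 31 were lower and 0 higher. Without water 4 and DSS 2, 13 of 31 were lower and 0 higher, and with the Y-linked covariate 0 were called.

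Fatty acid oxidation genes rose in 7 of 26 cases and fell in 0. Pdk4, which diverts cells from glucose oxidation, measured 1.47, 1.502, 1.54 and 2.77 FPKM on water and 6.86, 3.79, 8.08 and 4.74 FPKM after DSS (log2 change +1.26 ± 0.22 SE, adjusted p = 0.00186). Plin2, a coat protein of lipid droplets, measured 28.2, 28.2, 26.04 and 27.2 FPKM on water and 39.9, 38.2, 42.2 and 36.5 FPKM after DSS (log2 change +0.50 ± 0.08 SE, adjusted p = 0.00104). Both were separate between groups. Cpt1a, the gate of mitochondrial fatty acid uptake, had +0.21 and was not called. Glycolysis and hypoxia genes were 7 lower and 1 higher of 23. The growth factor Vegfa, a hypoxia target, measured 13.2, 15.97, 14.9 and 11.4 FPKM on water and 8.56, 7.83, 9.72 and 7.55 FPKM after DSS (log2 change -0.65 ± 0.12 SE, adjusted p = 0.00189). Egln3, an oxygen sensor and hypoxia target, measured 31.1, 26.9, 24.3 and 22.6 FPKM on water and 13.3, 17.6, 18.4 and 15.6 FPKM after DSS (log2 change -0.66 ± 0.13 SE, adjusted p = 0.00398). Both were without overlap, while the glucose transporter Slc2a1 overlapped at 46.1, 36.8, 37.9 and 32.01 FPKM on water and 38.8, 36.1, 37.1 and 42.8 FPKM after DSS. After the GC correction 6 of the 26 fatty acid oxidation genes were higher and 2 of the 23 glycolysis and hypoxia genes lower. Without water 4 and DSS 2 these counts were 5 and 3, and with the Y-linked covariate 0 and 1.

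Ribosomal protein genes were 24 lower and 0 higher of 79, with a median of -0.25, and respiratory chain genes 11 lower and 1 higher of 37, with a median of -0.20. Rps23 measured 211, 233, 233 and 307 FPKM on water and 110.0, 102, 123 and 139 FPKM after DSS (log2 change -1.04 ± 0.19 SE, adjusted p = 0.00223). Uqcrb, a subunit of complex III, measured 147, 118, 128 and 125 FPKM on water and 78.1, 73.4, 92.6 and 72.1 FPKM after DSS (log2 change -0.70 ± 0.12 SE, adjusted p = 0.00124). Both were separate between groups. The housekeeping genes among the largest falls varied widely within groups. Uqcr11, of the same complex, measured 73.3, 71.01, 109 and 186 FPKM on water and 33.4, 36.2, 56.5 and 28.7 FPKM after DSS (log2 change -1.42 ± 0.29 SE, adjusted p = 0.00399). Rpl7a measured 49.6, 25.5, 78.1 and 39.8 FPKM on water and 2.995, 3.99, 13.4 and 13.3 FPKM after DSS (log2 change -2.51 ± 0.57 SE, adjusted p = 0.00671). Pfdn6, a chaperone subunit, measured 7.07, 13.01, 17.8 and 23.2 FPKM on water and 2.72, 3.56, 6.67 and 3.52 FPKM after DSS (log2 change -1.61 ± 0.41 SE, adjusted p = 0.012). None of the 3 overlapped between groups. Many ribosomal protein genes have near-identical processed copies, so these values are uncertain. Ndufv1, a subunit of complex I, had a log2 change of -0.05 and was not called (adjusted p = 0.787). Leaving out water 4 and DSS 2 left 3 ribosomal protein genes and 5 respiratory chain genes lower, the GC correction left 19 and 8, and the Y-linked covariate 0 and 1. Of 232 numbered zinc finger genes, 39 (16.8%) were higher and 14 (6.03%) lower, against 14.9% and 13.6% of all genes. Zfp667, kept through DSS libraries alone, was among the 39. After the GC correction the counts were 14 and 13. Without water 4 and DSS 2 there were 7 and 5, and with the Y-linked covariate 2 and 0.

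Clock genes were 8 lower and 5 higher of 16. The activator Arntl measured 1.49, 2.68, 1.32 and 7.66 FPKM on water and 9.17, 7.41, 9.76 and 6.98 FPKM after DSS (log2 change +1.33 ± 0.30 SE, adjusted p = 0.00701). The repressor Nfil3 measured 3.86, 3.12, 2.02 and 9.52 FPKM on water and 12.3, 9.86, 12.8 and 9.89 FPKM after DSS (log2 change +1.27 ± 0.26 SE, adjusted p = 0.00432). In both, water 4 lay apart from the other water libraries, on the side of DSS. Without water 4 and DSS 2, 10 were lower and 4 higher, and with the Y-linked covariate 0 were called. Times of collection are not in the labels. Of 22 mTOR complex and insulin signalling genes 5 (22.7%) were higher and 3 (13.6%) lower, against 14.9% and 13.6% of all genes. Rictor, intact in these mice, overlapped at 3.14, 3.08, 2.80 and 2.17 FPKM on water and 3.85, 3.69, 2.82 and 4.16 FPKM after DSS (adjusted p = 0.0865). Akt1s1, an inhibitor subunit of mTOR complex 1, fell from 16.8, 17.2, 19.2 and 22.8 FPKM to 10.6, 9.95, 12.5 and 7.30 FPKM (log2 change -0.86 ± 0.19 SE, adjusted p = 0.00568), and Txnip, which limits glucose uptake, rose by +0.54 ± 0.12 SE. Corrected for GC, 3 of the 22 were higher and 1 lower, without water 4 and DSS 2 there was 1 in each direction, and the Y-linked covariate left 0.

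Of 23 autophagy and lysosome genes 4 (17.4%) were higher and 1 lower, a share near the 14.9% of all genes. Map1lc3b, the LC3 protein of the autophagosome, measured 17.6, 15.97, 15.5 and 17.7 FPKM on water and 24.2, 22.9, 20.7 and 26.9 FPKM after DSS (log2 change +0.48 ± 0.09 SE, adjusted p = 0.00213) and Atg5 rose by +0.46 ± 0.13 SE, while the receptor Sqstm1 overlapped (-0.04). After the GC correction 6 were higher, without water 4 and DSS 2 there were 2, and the Y-linked covariate left 0. Of 25 genes of the NRF2 response and drug metabolism 1 (4%) was higher and 3 (12%) were lower, against 14.9% and 13.6% of all genes. The cytochrome Cyp2c68 was the higher one, at 26.8, 28.3, 29.5 and 26.7 FPKM on water and 54.8, 63.3, 42.98 and 46.8 FPKM after DSS (log2 change +0.86 ± 0.22 SE, adjusted p = 0.0118). Cyp4b1, another cytochrome, was 1 of the 3 lower genes, at 8.78, 3.95, 15.2 and 1.90 FPKM on water and 1.02, 1.57, 0.675 and 1.19 FPKM after DSS (log2 change -1.72 ± 0.42 SE, adjusted p = 0.00923). Nqo1, the classical NRF2 target, overlapped (+0.34, adjusted p = 0.307). With the GC correction 1 of these 25 was higher and 3 lower, without water 4 and DSS 2 it was 0 and 2, and the Y-linked covariate left 0.

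Some genes of other cell types moved with the treatment. The 19 listed fibroblast and matrix genes summed to 11.3 to 15.7 FPKM on water and 22.1 to 28.8 FPKM after DSS. 10 of them were not kept, and 3 of the 9 that were, the collagens Col1a1, Col3a1 and Col6a1, were kept through DSS libraries alone, so no count of called genes is given. Col3a1 measured 0.477, 0.304, 0.341 and 0.307 FPKM on water and 2.47, 2.43, 2.09 and 1.84 FPKM after DSS. Sparc, a matrix protein, measured 0.830, 0.526, 0.653 and 0.831 FPKM on water and 3.18, 4.48, 4.25 and 2.74 FPKM after DSS. The groups were separate for Sparc. Of 17 listed macrophage and monocyte genes 8 were kept, among them C1qb through DSS libraries alone, and the 17 summed to 40.02 to 53.3 FPKM on water and 72.9 to 85.9 FPKM after DSS. Most of that sum was Cd14, which epithelium can also make, at 33.8, 36.7, 31.3 and 44.5 FPKM on water and 63.2, 56.7, 59.5 and 69.5 FPKM after DSS. Lyz2 measured 2.59, 1.91, 1.02 and 1.17 FPKM on water and 4.44, 5.29, 3.26 and 6.64 FPKM after DSS (log2 change +1.15 ± 0.25 SE, adjusted p = 0.00517) and C1qb 0, 0.269, 0 and 0.0615 FPKM on water and 0.530, 0.576, 1.21 and 1.26 FPKM after DSS. Cd68, another macrophage marker, went the other way, at 2.45, 1.07, 2.18 and 2.40 FPKM on water and 0.917, 1.77, 0.936 and 0.876 FPKM after DSS (log2 change -0.50 ± 0.17 SE, adjusted p = 0.0404). Its groups overlapped, and it was not called after the GC correction. The 14 T cell and intraepithelial lymphocyte genes summed to 21.4 to 25.4 FPKM on water and 25.0 to 33.6 FPKM after DSS. Gzmb measured 3.26, 3.51, 2.47 and 2.89 FPKM on water and 4.97, 5.28, 5.25 and 7.19 FPKM after DSS (log2 change +0.72 ± 0.19 SE, adjusted p = 0.0128) and Cd3e overlapped at 0.967, 0.818, 0.623 and 0.837 FPKM on water and 0.919, 1.07, 0.594 and 1.10 FPKM after DSS. The 8 B and plasma cell genes summed to 7.64 to 35.7 and 16.5 to 26.9 FPKM. The 10 listed neutrophil genes summed to 46.9 to 58.8 FPKM on water and 31.7 to 39.4 FPKM after DSS. Nearly all of this was Ly6g, at 46.6 to 58.5 and 31.5 to 38.9 FPKM. The other 9 had fewer than 30 reads each over the 8 libraries, so the sum is no measure of neutrophils. The part of such cells in the results above was not tested.

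The same treatment was measured in the cKO libraries, which share no sample with the control libraries. Sex-linked reads separated its groups too, and so did the clock gene Dbp. Xist had 12235 to 25600 reads in cKO libraries on water and 0 to 4 after DSS, Y-linked genes 0 to 1856 and 2924 to 4533 reads, and Dbp 7.02 to 16.4 and 0.135 to 0.632 FPKM. The sexes of the cells and DSS cannot be told apart there either, so genes called in both genotypes share this limit. In cKO 1048 genes (8.2%) were higher with DSS and 830 (6.5%) lower. Of the genes called in control, 541 of 1904 were also higher in cKO and 287 of 1743 also lower, while 12 and 13 were called the opposite way. Across the 12779 genes the 2 sets of fold changes had a Spearman rho of 0.38. 16 of 17 GTPases and 36 of 40 antiviral effectors were higher in cKO, with medians of +1.13 and +0.96. The 17 include the 4 GTPases kept through DSS libraries alone. Of single genes, Gbp2 rose by +1.16 ± 0.21 SE in cKO, Tap1 by +1.22 ± 0.11 SE and Ly6a by +1.28 ± 0.20 SE. Axin2 and Ascl2 had -1.35 ± 0.14 SE and -1.17 ± 0.18 SE there. Immediate early genes were 0 lower and 3 higher of 20 in cKO, with Nr4a1 at -0.27 ± 0.22 SE and Junb at +0.10 ± 0.27 SE, neither called. Cholesterol and fatty acid synthesis genes were 20 lower and 1 higher of 31 in cKO. No gene of these lists, immediate early or cholesterol and fatty acid synthesis, passed the interaction test given below.

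The difference between the responses was tested directly as an interaction of genotype and DSS. 20 of 12779 genes passed (0.157%), with 2958 at an unadjusted p under 0.05, and 14 of the 20 were called in control. Gm15564, annotated as antisense, whose reads cannot be told from those of an overlapping gene unless counting used strand, which is not stated, measured 0.326, 0.714, 0.896 and 0.979 FPKM on water and 2.46, 2.54, 1.35 and 2.52 FPKM after DSS in control, where it rose by +0.89 ± 0.18 SE, against -1.0 ± 0.18 SE in cKO. Rdx, which links actin to the membrane, rose by +0.45 ± 0.13 SE in control, with overlap and with no call after the GC correction, and fell in cKO, at -0.61 ± 0.13 SE. Septin10, a filament protein, rose by +0.24 ± 0.07 SE in control against -0.44 ± 0.07 SE. The nuclear protein Nucks1 rose by +0.32 ± 0.10 SE against -0.49 ± 0.10 SE, and its control groups overlapped between water 4 and DSS 3. Neither was called in control after the GC correction. The pseudogene Rps15-ps3 fell in control, at -1.32 ± 0.18 SE, against +0.19 ± 0.18 SE. The glucose kinase Hk2 overlapped in control, at 26.1, 30.9, 30.7 and 32.8 FPKM on water and 31.1, 30.5, 32.9 and 30.7 FPKM after DSS, and rose in cKO by +0.86 ± 0.08 SE. The count of 20 was 0 without DSS 2, 0 without DSS 4 and 123 without DSS 3. No gene of the lists of GTPases, antiviral effectors, MHC class I, immediate early genes or cholesterol and fatty acid synthesis passed the interaction test at an adjusted p under 0.05. That does not show that both genotypes respond alike.

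**Figure D5:**
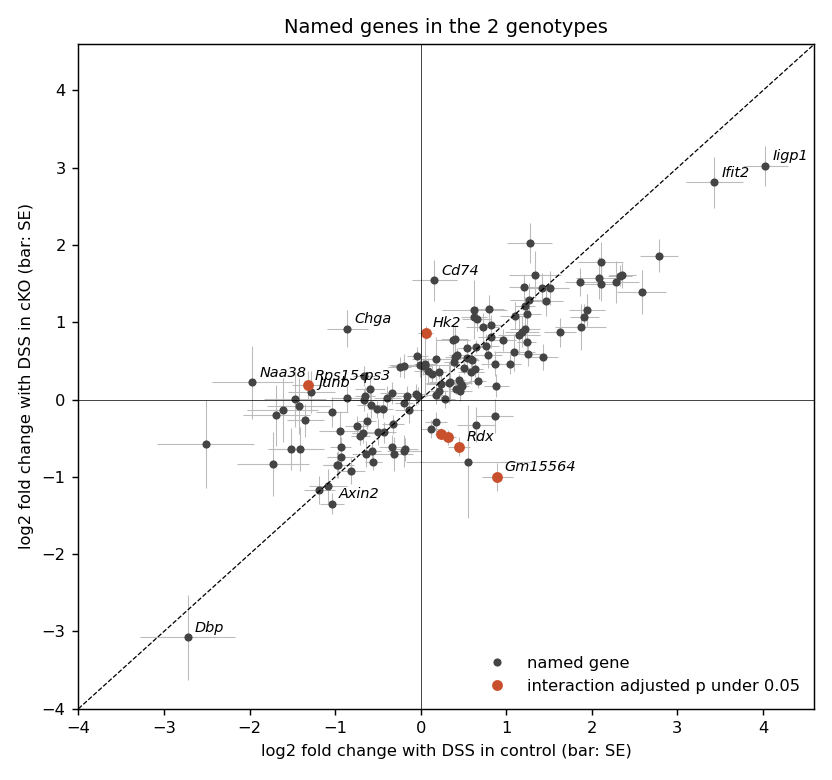
Log2 fold change with DSS in control (horizontal) and in cKO (vertical) for the 145 named genes, with bars of 1 SE; the dashed line marks equal values and larger orange points passed the interaction test. Iigp1 and Ifit2 lie at the upper right in both genotypes, and Gm15564 and Rdx lie below the horizontal axis.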

How the data were processed

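RNA sequencing was of total RNA (TRIzol) from colonic epithelial cells, 4 libraries in each of 4 groups. The authors dropped low-quality and adapter-bearing reads, per the labels' protocols. The submitters' processing notes name mm10, DESeq2 1.20.0 and featureCounts 1.5.0-p3. Aligner, annotation release and strand setting: not given in the sources used here. Reads of overlapping or antisense genes could therefore be shared. The authors deposited FPKM, scaled to gene length and library size, and another column with each gene's length. Whole reads were recovered from FPKM times length (within 0.05), and gave 13934619 to 16201539 reads per control library, so genes near 1 FPKM are less precise. Pairs of libraries of a group differed by more than counting noise (chi-square per degree of freedom 6.40 to 57.3).

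On the log2(FPKM + 1) scale, 13255 genes reached 1 FPKM in 4 or more of 16 libraries. Each group's mean was fitted by the trended empirical Bayes test of limma 3.58.1 (R 4.3.3, two-sided). The Benjamini-Hochberg adjustment ran over all 13255, and results were read for the 12779 on chromosomes 1 to 19. Scripts were tested on simulated data. GC content is that of the longest GENCODE M21 transcript, removed per library by loess (span 0.5). The comparison and the 37 gene lists were chosen with earlier results of these data known. Genes named are the first 2 of each list and up to 2 more with the smallest p among called members, the 10 largest rises and 10 largest falls among called protein-coding genes whose groups did not overlap and that held after the GC correction (predicted genes and antigen receptor segments left out), and up to 5 with the smallest interaction p among called genes; others are named as values, and some genes are not reported here. Alternatives were a pseudocount of 0.1, other filters, normalizations, weights and covariates, a 1.2-fold limit, leaving out libraries, and limma voom on recovered reads.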

Additional observations from a re-analysis of the deposited data

Results flagged for a closer look

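Among the 145 named genes, 14 values of a control library lay far from the other 3 libraries of their group by Dixon's test at its 95% level, on the log2 scale. Chance flags about 1 in 20 groups. Each gene was tested in a water and a DSS group, so chance alone gives about as many flags as were seen. Water 4 held 4 of the 14. Its Lgr5 was lowest at 0.528 FPKM and its Cyld lowest at 3.71 FPKM, while its Gsdmd was highest at 71.2 FPKM and its Pdk4 highest at 2.77 FPKM. Water 2 was lowest for Cd68 at 1.07 FPKM, Espn at 9.57 FPKM and Shmt2 at 8.80 FPKM. DSS 2 was highest for Cd68 at 1.77 FPKM and Slc26a3 at 146 FPKM and lowest for Sqstm1 at 43.3 FPKM. DSS 4 was highest for Gzmb at 7.19 FPKM and Krt20 at 500.2 FPKM and lowest for Espn at 6.67 FPKM. DSS 3 was lowest for Gm15564 at 1.35 FPKM.

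6 named genes responded differently in the genotypes by the interaction test. The cKO minus control difference in log2 fold change was -1.89 for Gm15564, -1.06 for Rdx, -0.81 for Nucks1, -0.68 for Septin10, +0.81 for Hk2 and +1.51 for Rps15-ps3.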

How the results depend on the processing

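The count of 3647 genes called with DSS in control (1904 higher, 1743 lower) was most reduced by the Y-linked covariate, to 188 (134 and 54; 179 of the 188 were among the 3647 in the same direction, and 2729 had an unadjusted p under 0.05). Without both water 4 and DSS 2 it was 1406 (777 and 629; 1331 shared). A fold limit of 1.2 left 298 (189 and 109). The GC correction left 1367 higher and 1084 lower, GC and length together 1218 higher, and GC with a replicate block 2428 (1092 lower). Leaving out 1 control library gave 2161 (without DSS 1) to 3945 (without DSS 3), with 1163 to 2014 higher and 998 to 1931 lower. Without water 3 it was 2417, without water 4 2368 and without DSS 2 2361. The cause of these changes was not tested. Replicate numbers did not pair the libraries, since deviations of same-numbered libraries correlated at -0.03, 0.05, 0.01 and -0.06, and the replicate block gave 3729 genes (1918 and 1811).

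The interaction count of 20 was 4 with no filter, 45 with a filter at 5 FPKM, 38 with a filter on the control libraries, 11 with quantile normalization, 36 with a median shift, 13 with the replicate block and 68 with limma voom. It was 3593 with sample weights, 9 with the GC correction, 7 with GC and length, 4 with GC and the replicate block, 7 with the Y-linked covariate, 0 with the fold limit, 0 without water 4 and DSS 2, and 0 to 123 with 1 control library left out. The remaining settings kept each count within 1.5 times. Of the 145 named genes Cldn3, at -0.25 and not called, was called at +0.26 after the GC and length correction, and 73 lost their call with the Y-linked covariate. The precision of genes near 1 FPKM is limited by depth.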
